A study of Mus musculus with 8 samples.

Results

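The genes described here are 10 effectors of the integrated stress response, the program that cells switch on when protein synthesis or amino acid supply is disturbed: Atf4, Atf5, Ddit3, Cebpb, Trib3, Chac1, Asns, Slc7a11, Sesn2 and Eif4ebp1. They were picked by name out of the 24385 features of a mouse heart expression table, and all 10 had a row in it. The choice was made with their E9.5 levels in mutant hearts known, so the E9.5 difference between genotypes, and the stage comparisons that reuse the same E9.5 libraries, are given as a description with no test. The difference between genotypes at E8.5 did not enter the choice and was tested. Of the 10 genes, 8 averaged 1 FPKM or more across the 8 libraries and were fitted together with all 10018 genes past that filter. These 8 also had a mean above 1 FPKM without the E9.5 mutant libraries, so none passed through that group alone. Cebpb and Slc7a11, at means of 0.167 and 0.0625 FPKM, were below the filter and are given as values.

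Hearts were taken from C57BL/6 embryos at embryonic day 8.5 (E8.5) and 9.5 (E9.5), with 2 libraries for each of the 4 combinations of stage and genotype. The libraries labelled wild type (WT) came, by the study's account, from Dgcr8 loxP/loxP; Rosa26 mT/mG/+ embryos without Cre, so they carried the floxed alleles and the reporter. The Dgcr8 cKO libraries, labelled Mesp1Cre/+; Dgcr8-/-, carried in addition Mesp1 Cre/+, from which Cre is made in the mesodermal progenitors of the heart and its vessels. DGCR8 is the partner of Drosha that starts microRNA maturation, and only cells descended from Mesp1-expressing progenitors lose it, while cells of other origin carried along in a dissection do not. Whether hearts were pooled for a library was not stated. The comparison asks how these stress genes stood in hearts in which Dgcr8 was deleted, before and after the onset of the cardiac defect.

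Dgcr8 itself was measured at 7.10 and 8.60 FPKM in WT against 1.64 and 4.67 in cKO hearts at E8.5, and 3.49 and 3.23 in WT against 1.15 and 1.77 in cKO hearts at E9.5. Both cKO libraries were below both WT libraries at each stage, but neither difference passed the test (log2 differences of -1.19 and -0.84, limma adjusted p = 0.59 and 0.317). Relative sequencing depth, read from the steps between low values, ranged from 1 to 1.45, and the depth in reads is unknown. Loci under 300 bp took 15.7% to 54.5% of the summed FPKM, with 22.4% or less in the 4 WT libraries, 38.6% and 50.5% in the E8.5 cKO pair, and 54.5% against 18.3% in replicates 1 and 2 of E9.5 cKO, so that E9.5 cKO replicate 1 stood apart from its partner. All 6 cardiomyocyte markers were above 1 FPKM in every group. Markers of decidua and uterine natural killer cells summed to 5146 FPKM in E8.5 cKO replicate 2 and to 11 in replicate 1, to 707 and 1160 in E8.5 WT, and to 5.87 or less in every E9.5 library. In bulk tissue, fewer cells of a type and less RNA per cell cannot be told apart.

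The integrated stress response starts when one of several kinases phosphorylates the translation initiation factor eIF2. General protein synthesis then drops, while a few mRNAs, Atf4 and Atf5 among them, are translated better because of short upstream reading frames. The ATF4 protein pairs with C/EBP family partners on a composite DNA element and switches on genes for amino acid uptake, amino acid synthesis and tRNA charging, as well as Ddit3, which encodes CHOP. RNA levels show this target program but not the phosphorylation or translation steps above it.

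Because several of these genes share the composite C/EBP-ATF element, the promoter stretches that hold it are shown first. RefSeq (GRCm38.p6) promoter windows from 250 bases before to 50 bases after the start were found for 9 of the 10 genes, all but Eif4ebp1, with 2 windows for Atf5. They were searched on both strands for TGATGNAA, and 4 of the 9 genes had a match (Chac1, Trib3, Asns and Slc7a11). The share among 32851 mouse promoter windows was 3.97%, counted by window and not by gene. The motif was searched because several of these genes share the element, so the count is no independent support. A related form, TGACGNAA, chosen after the sequences had been seen, was found in 1 of the 9 and in 1.59% of the windows; the forms differ at one letter and cannot match the same 8 bases. Each stretch below runs 30 bases in the direction of the gene, and capitals mark the match.
Chac1 at chr2:119350992-119351021 (plus strand): TGACGCAAtctgactcgcccttgctgcatg
Chac1 at chr2:119351038-119351067 (plus strand): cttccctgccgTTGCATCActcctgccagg
Trib3 at chr2:152344028-152344057 (minus strand): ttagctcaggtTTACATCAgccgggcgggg
Asns at chr6:7693214-7693243 (minus strand): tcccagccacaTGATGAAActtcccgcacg
Slc7a11 at chr3:50443651-50443680 (minus strand): cTGATGCAAacctggagaatTTGCATCAtc

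By position from the gene start, in Asns the first base of the match is at position -23, and in Slc7a11 the 2 matches, on opposite strands, begin at -66 and -47. In Trib3 the match lies downstream of the start, at 15, and in Chac1 the matches begin at -250, the first base of the window, and -193. Atf4, Atf5, Ddit3, Cebpb and Sesn2 had no match in these windows, which says only that these letters are not there. In other lists of pathway genes with a window, TGATGNAA was found in 5 of 8 tRNA synthetase genes known as ATF4 targets. It was also in 4 of 14 other ATF4 or CHOP targets and 1 of 5 amino acid transport genes. Of 11 genes for amino acid and one-carbon synthesis, 1 had it. Of 13 genes of endoplasmic reticulum chaperones and the unfolded protein response, 1 had it (Herpud1). The motif was in 0 of 11 genes of eIF2 control and 0 of 5 targets of NRF2. It was in 0 of 7 relatives of the 10 genes and 0 of 5 other tRNA synthetase genes. A match is a string of letters, not a bound site, and no binding was measured.

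**Figure D1:**
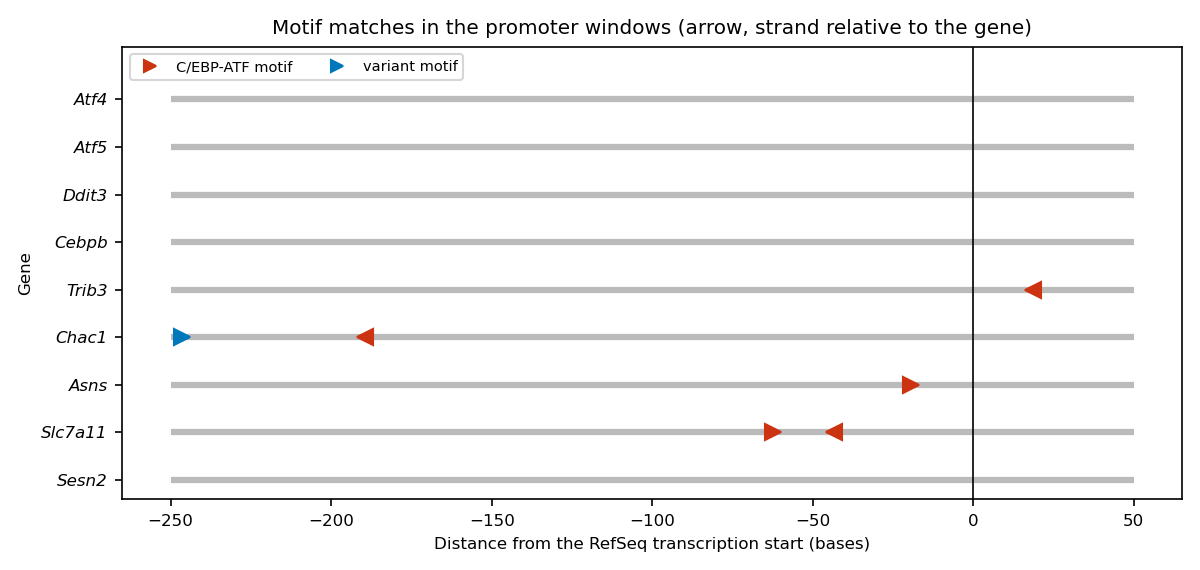
Matches to the C/EBP-ATF motif TGATGNAA (red) and its variant TGACGNAA (blue) in the promoter windows of 9 stress response genes, by distance in bases from the RefSeq transcription start; arrows give the strand relative to the gene. Chac1, Trib3, Asns and Slc7a11 hold matches between positions -250 and 15, and the windows of the other 5 genes hold none.

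The stress response genes stood higher in E9.5 cKO hearts than in E9.5 WT hearts. Both cKO libraries were above both WT libraries for 8 of the 8 fitted genes, where 21% of all tested genes showed that order, and the 8 genes were also at least 1.5-fold above the median gene, as 11.2% of tested genes were. These counts follow from how the genes were picked and are not read further. The excess ran from 1.97-fold for Eif4ebp1 to 42.8-fold for Chac1. The median difference of the 8 genes was 1.34 on the log2(FPKM + 1) scale relative to the median gene, which itself differed by -0.07. At E8.5, the comparison that the choice did not use, 0 of the 8 passed the test. Only 0.00998% of all tested genes passed there, and Dgcr8 itself did not, so this count says little about these genes.

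**Figure D2:**
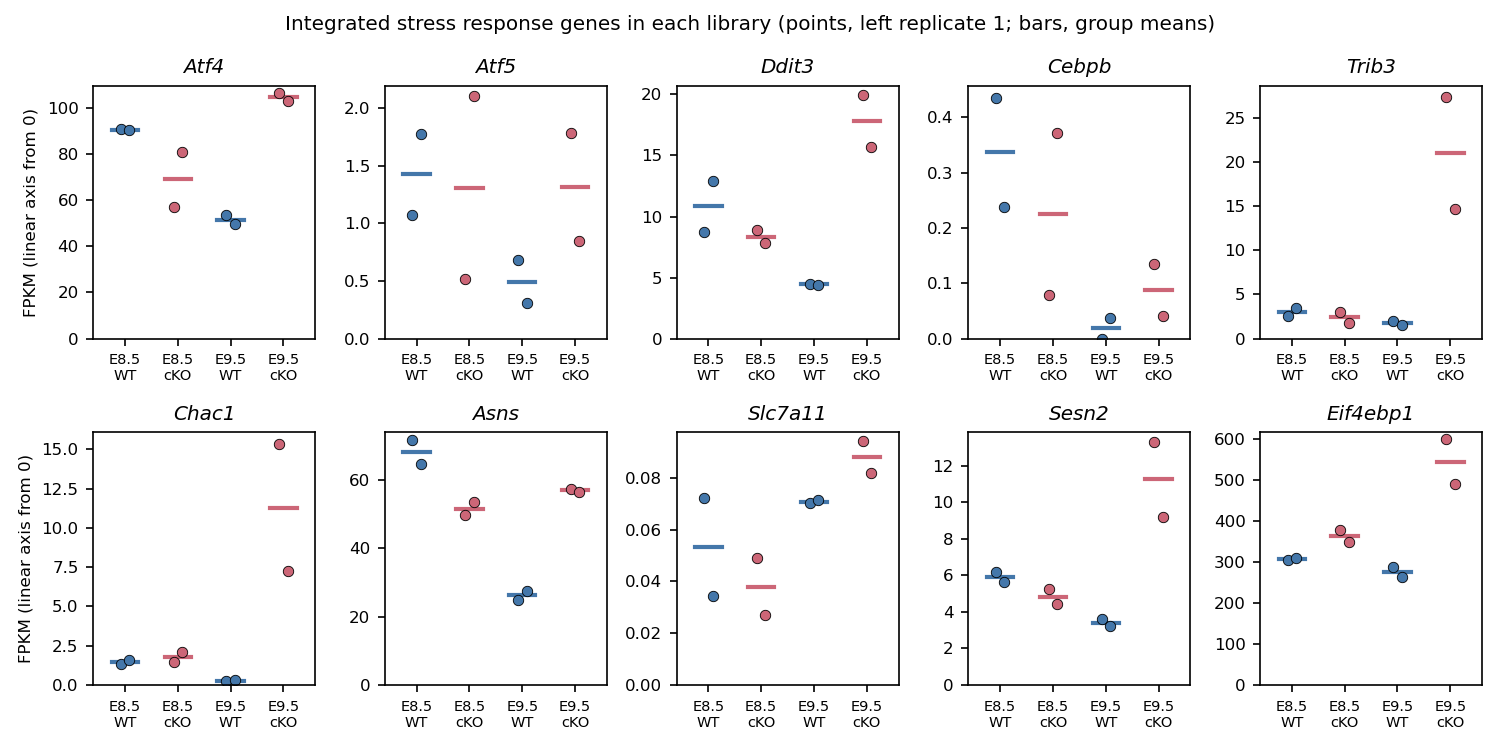
FPKM of the 10 stress response genes in each library (points, replicate 1 on the left), with WT in blue, cKO in red and bars at the group means; each panel has its own linear axis from 0. In the panels of the 8 fitted genes both E9.5 cKO points lie above both E9.5 WT points, with Chac1 at 0.291 FPKM or less in E9.5 WT and at 7.23 and 15.3 in E9.5 cKO.

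Among the transcription factors, Atf4 is the central activator of the program. Its locus on chromosome 15 (80255184-80257545, GRCm38, like all positions here) gave 91.0 and 90.4 FPKM in WT against 57.3 and 81.0 in cKO libraries at E8.5, and 53.7 and 49.5 in WT against 107 and 103 in cKO libraries at E9.5. The E9.5 cKO hearts were the highest and the E9.5 WT hearts the lowest, while E8.5 WT and E8.5 cKO lay between them, the cKO pair below the WT pair. At E9.5 the mean was 105 ± 2.63 FPKM in cKO and 51.6 ± 2.95 in WT (SD, n = 2), a 2.03-fold level and a log2 difference of 1.01 (SE 0.26). At E8.5 the log2 difference was -0.41 (95% interval -1.01 to 0.20), which did not pass the test (limma adjusted p = 0.609).

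Ddit3 encodes CHOP, the factor that ATF4 induces and that can turn a lasting stress response towards cell death. On chromosome 10 (127290793-127296288) it gave 8.72 and 12.9 FPKM in WT against 8.86 and 7.83 in cKO libraries at E8.5, and 4.47 and 4.41 in WT against 19.9 and 15.7 in cKO libraries at E9.5. The E8.5 groups overlapped, and the E9.5 groups were the lowest and the highest of the 4. The E9.5 means of 17.8 ± 2.99 and 4.44 ± 0.0402 FPKM stood 4.01-fold apart (log2 difference 1.78, SE 0.27). The annotated ends of Ddit3 overlap those of Mbd6 and Mars1, and no source says whether the counting used strand, so reads there could be shared.

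Atf5, a relative of Atf4 that acts in mitochondrial stress, was near the lower limit of the filter. On chromosome 7 (44812256-44816658) it gave 1.08 and 1.78 FPKM in WT against 0.519 and 2.10 in cKO libraries at E8.5, and 0.680 and 0.308 in WT against 1.78 and 0.847 in cKO libraries at E9.5. Only E9.5 WT stood apart as low, and from E8.5 WT and E9.5 cKO but not from E8.5 cKO, whose replicates differed the most. The E9.5 log2 difference of 0.61 (SE 0.39) was the smallest of the 8, on a 2.66-fold ratio of means. Atf5 also overlaps Nup62 and Il4i1b in the annotation.

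Cebpb, a C/EBP partner of ATF4 on its element, was barely detected. On chromosome 2 (167688915-167690432) it gave 0.435 and 0.238 FPKM in WT against 0.0795 and 0.372 in cKO libraries at E8.5, and 0 and 0.0378 in WT against 0.134 and 0.0415 in cKO libraries at E9.5. Scaled by relative depth, these values lay within 0.057 steps of whole multiples of the smallest one, at most 8 steps in any library, so a genotype difference was not detectable at this depth. Its E8.5 groups overlapped.

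Trib3 and Chac1 had the widest difference between E9.5 genotypes. Trib3 encodes a pseudokinase induced by ATF4 and CHOP that in turn holds them and the kinase AKT back. On chromosome 2 (152337425-152344060) it gave 2.56 and 3.41 FPKM in WT against 3.03 and 1.73 in cKO libraries at E8.5, and 2.02 and 1.53 in WT against 27.3 and 14.6 in cKO libraries at E9.5. The E9.5 cKO libraries were far above the other 6, which lay between 1.53 and 3.41 FPKM. The E9.5 means of 21.0 ± 8.97 and 1.78 ± 0.347 FPKM stood 11.8-fold apart (log2 difference 2.92, SE 0.35).

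Chac1 encodes an enzyme that breaks down glutathione, and it is a late target of the ATF4 and CHOP branch. On chromosome 2 (119351242-119354327), beside the promoter stretches printed above, it gave 1.31 and 1.60 FPKM in WT against 1.49 and 2.09 in cKO libraries at E8.5, and 0.236 and 0.291 in WT against 15.3 and 7.23 in cKO libraries at E9.5. The groups fell into 3 levels, with E9.5 WT lowest, the overlapping E8.5 groups in the middle and E9.5 cKO highest. The E9.5 means of 11.3 ± 5.72 and 0.264 ± 0.0389 FPKM stood 42.8-fold apart. On the log2(FPKM + 1) scale, which understates changes of low genes, the difference was 3.20 (SE 0.33), and it was 4.87 with a pseudocount of 0.1.

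On the log2(FPKM + 1) scale the E9.5 cKO replicates differed most for these 2 of the 10 genes, replicate 1 being the higher. That replicate is the library with 54.5% of its summed FPKM in loci under 300 bp. With replicate 2 as the lone E9.5 cKO library, the log2 differences were 2.70 for Chac1 and 2.50 for Trib3, and the median of the 8 genes relative to the median gene was 1.29. The 8 genes were higher in E9.5 cKO in that comparison too, Atf5 by the least (0.32).

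Asns makes asparagine and is among the best-known ATF4 targets in amino acid shortage. On chromosome 6 (7675171-7693182) it gave 71.6 and 64.8 FPKM in WT against 49.8 and 53.5 in cKO libraries at E8.5, and 25 and 27.6 in WT against 57.4 and 56.6 in cKO libraries at E9.5. E8.5 WT was highest and E9.5 WT lowest, and the 4 groups did not overlap. At E9.5 the means of 57.0 ± 0.526 and 26.3 ± 1.84 FPKM stood 2.17-fold apart (log2 difference 1.09, SE 0.24), whereas at E8.5 the cKO libraries were below the WT ones by a log2 difference of -0.39 (95% interval -0.94 to 0.15, limma adjusted p = 0.596).

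Slc7a11 encodes the cystine and glutamate exchanger xCT, which feeds glutathione synthesis. On chromosome 3 (50364936-50443613) it stayed between 0.0268 and 0.0941 FPKM in the 8 libraries. Its highest values, 0.0941 and 0.0818, were those of E9.5 cKO, just above 0.0701 and 0.0715 in E9.5 WT, so the gene with 2 matches to the composite motif was hardly expressed in any of these hearts.

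The remaining genes restrain growth signalling. Sesn2 encodes a leucine sensor that holds back mTORC1, and on chromosome 4 (132492807-132510456) it gave 6.16 and 5.65 FPKM in WT against 5.25 and 4.42 in cKO libraries at E8.5, and 3.6 and 3.22 in WT against 13.3 and 9.21 in cKO libraries at E9.5. The 4 groups did not overlap, with E9.5 cKO highest and E9.5 WT lowest. The E9.5 means of 11.3 ± 2.91 and 3.41 ± 0.268 FPKM stood 3.3-fold apart (log2 difference 1.46, SE 0.25).

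Eif4ebp1 encodes 4E-BP1, which blocks the cap-binding factor eIF4E and is a substrate of mTORC1. It was the most abundant of the 10 genes per length. On chromosome 8 (27260327-27275656) it gave 305 and 309 FPKM in WT against 379 and 349 in cKO libraries at E8.5, and 289 and 264 in WT against 598 and 490 in cKO libraries at E9.5. The 4 groups did not overlap, and cKO was above WT at both stages. The E9.5 means of 544 ± 76.7 and 276 ± 17.7 FPKM stood 1.97-fold apart (log2 difference 0.97, SE 0.24), and at E8.5 the log2 difference was 0.24 (95% interval -0.31 to 0.80, limma adjusted p = 0.7). With median-ratio scaling the E8.5 difference was 0.60, at least 1.5-fold with an unadjusted p under 0.05, but it did not pass (limma adjusted p = 1).

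At E8.5, 0 of the 8 genes were called by limma (adjusted p under 0.05 and at least 1.5-fold), and 0 had an unadjusted p under 0.05. Of all tested genes, 0.00998% were called and 7.55% had an unadjusted p under 0.05 in the lower direction. The log2 differences ran from -0.41 for Atf4 to 0.24 for Eif4ebp1, with 95% intervals between -1.05 and 0.95. Both cKO libraries were below both WT libraries for Atf4, Asns and Sesn2 and above them for Eif4ebp1, where 40.1% of tested genes were lower and 2.54% higher in that way. The median of the 8 genes stood 0.03 above the median gene, which differed by -0.28 at this stage. Under median-ratio scaling the E8.5 differences of Atf5, Ddit3 and Sesn2 changed sign, to 0.07, 0.01 and 0.05, so for these 3 genes no direction can be given. Those of Atf4 and Asns shrank to -0.05 and -0.04, and to -0.12 and -0.07 with quantile normalization. Trib3 and Chac1, widest apart at E9.5, differed by -0.26 (95% interval -1.05 to 0.54) and 0.18 (95% interval -0.59 to 0.95) at E8.5. The Trib3 difference was -0.03 with quantile normalization and 0.02 without E8.5 cKO replicate 2, so no direction can be given for it either. Without E8.5 cKO replicate 2, the library with the highest sum of decidual markers (both E8.5 WT libraries held them too), 0 of the 8 genes were called as well, and Atf4 alone (log2 difference -0.65, limma adjusted p = 0.445) had an unadjusted p under 0.05 with a difference of at least 1.5-fold. E8.5 cKO replicate 1 stood apart in another way, with visceral endoderm markers summing to 6733 FPKM against 1980 in replicate 2 and 745 and 2562 in WT, and myeloid markers to 6.08 against 266 in replicate 2 and 346 and 87.3 in WT. Without that replicate 0 of the 8 genes were called, too.

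**Figure D3:**
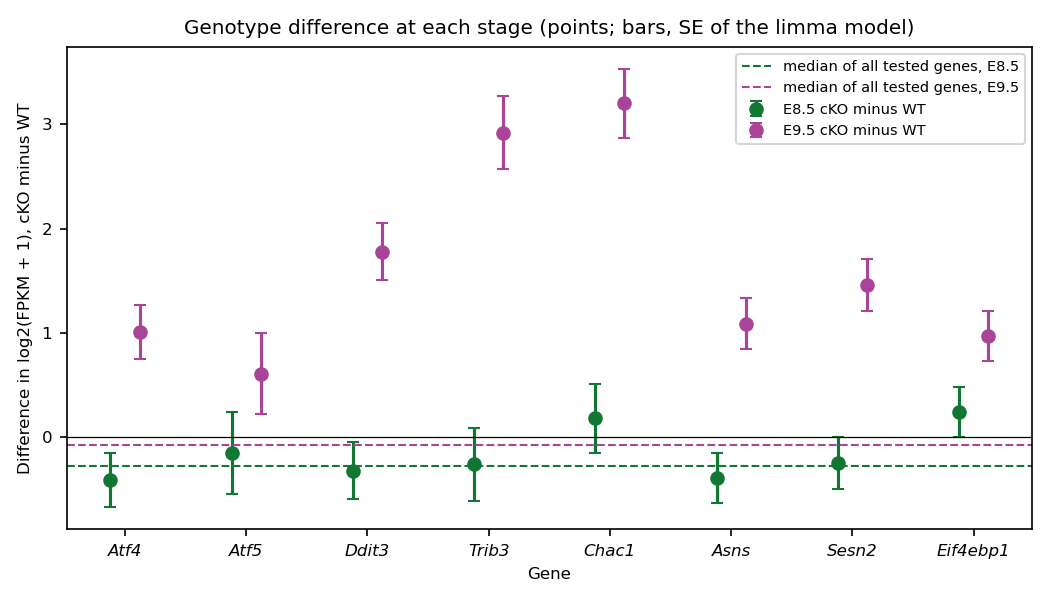
Difference between cKO and WT in log2(FPKM + 1) for the 8 fitted stress response genes at E8.5 (green) and E9.5 (purple); bars are the SE of the limma model, dashed lines the median of all tested genes at each stage. The E8.5 points lie between -0.41 and 0.24, around their median line at -0.28, and the E9.5 points between 0.61 and 3.20, above theirs at -0.07.

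The stages can also be compared within a genotype, again as a description. In WT hearts, both later libraries were below both earlier ones for 8 of 8 genes, which was also the order of 80.1% of all tested genes, and the median of the 8 stood 0.09 above a median gene that differed by -0.84. The log2 differences ran from -1.34 for Asns to -0.15 for Eif4ebp1, but those of Atf4, Trib3, Sesn2 and Eif4ebp1 became positive with median-ratio scaling, and those of Atf5, Trib3 and Sesn2 with quantile normalization. Relative to other genes, therefore, no fall in WT can be stated for the 8 as a group. In cKO, both E9.5 libraries were above both E8.5 libraries for 7 of 8 genes (all but Atf5), an order shown by 7.05% of tested genes, and the median of the 8 stood 1.44 above a median gene that differed by -0.64. Here Trib3 (2.66), Chac1 (2.06) and Sesn2 (1.05) had the widest log2 differences. With median-ratio scaling and quantile normalization these became 3.31 and 3.40 for Trib3, 2.67 and 2.80 for Chac1, and 1.73 and 1.83 for Sesn2, while Atf4 went from 0.62 to 1.37 and 1.14 and Asns from 0.14 to 0.89 and 0.76. Atf5, at 0.06, was -0.45 without E8.5 cKO replicate 1 and -0.23 without E9.5 cKO replicate 1. The pattern of lower at E9.5 in WT and higher at E9.5 in cKO, without overlap in either, was shown by 1.99% of tested genes.

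The genes whose profile over the 8 libraries was nearest to the mean profile of the 8 stress response genes were 2410006H16Rik, Dusp26, Proser2, Rnf208 and Gpr146. The measure was the root mean square difference of centred log2(FPKM + 1) values, which was 0.15 to 0.20 for these 5 and 0.82 for the median of 10010 genes. Dusp26, a dual-specificity phosphatase on chromosome 8, stood at 1.09 and 1.61 FPKM in WT against 7.86 and 4.64 in cKO hearts at E9.5. Rnf208, a RING finger protein gene on chromosome 2, stood at 0.572 and 0.661 in WT against 5.40 and 2.42 in cKO hearts at E9.5. Because they were picked for this likeness, the order of their groups and replicates follows from the choice.

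Upstream of Atf4, most values for the genes that control eIF2 lay near or below the median gene. Of the 14 genes of eIF2 control (the kinases, the GCN2 regulators Impact and Gcn1l1, the eIF2 subunit Eif2s1, the eIF2B subunits and the phosphatase subunits), 12 were tested, and limma called 0 at E9.5 (0.18% of all tested genes were called), with 1 gene higher and 3 lower by an unadjusted p below 0.05, against 5.27% and 10.5% of all tested genes. The one higher was Ppp1r15a, whose product GADD34 removes the phosphate from eIF2 as the response's own brake. It stood at 5.18 and 4.20 FPKM in WT against 15.6 and 12 in cKO hearts at E9.5, a log2 difference of 1.37 (SE 0.25, limma adjusted p = 0.0893). It passed with median-ratio scaling (difference 1.52, limma adjusted p = 0.0442) but not with quantile normalization (0.0722), without the filter (0.172) or with 1 E9.5 library left out (0.121 to 0.746). Eif2s1, the eIF2 subunit that is phosphorylated, stood at 27.3 and 63.9 FPKM in WT against 10.2 and 15.2 in cKO hearts at E9.5 (log2 difference -1.67, SE 0.44, limma adjusted p = 0.142). Its WT replicates were far apart, and the difference was -1.08 without E9.5 WT replicate 2 and -2.27 without replicate 1. Of the kinases, Eif2ak1 (the haem-regulated HRI) differed by -0.31 and Eif2ak4 (the amino acid sensor GCN2) by -0.47, and neither passed the test (limma adjusted p = 0.673 and 0.356). Eif2ak2 (PKR) and Eif2ak3 (the endoplasmic reticulum sensor PERK) were below the filter, at means of 0.544 and 0.445 FPKM.

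Other genes known as targets of ATF4 or CHOP were compiled from general knowledge, with earlier results of these libraries known. Of 15, 8 were tested, and limma called 0 at E9.5, while 6 were higher and 0 lower by an unadjusted p below 0.05 (5.27% and 10.5% of all tested genes). Their median stood 1.31 above the median gene. Adm2, a peptide of the calcitonin family, stood at 0.177 and 0.0910 FPKM in WT against 4.24 and 3.05 in cKO hearts at E9.5 (log2 difference 2.02, SE 0.32, limma adjusted p = 0.0733). Vldlr, a lipoprotein receptor, had 0.263 and 0.371 against 3.35 and 2.11 FPKM (limma adjusted p = 0.0912), and Stc2, a secreted stanniocalcin, 0.649 and 0.532 against 3.84 and 2.47 (limma adjusted p = 0.111). Atf3, a stress-induced factor downstream of ATF4, had 3.31 and 3.76 against 14.3 and 9.15 FPKM (limma adjusted p = 0.136). With median-ratio scaling Adm2, Vldlr and Stc2 passed the test (limma adjusted p = 0.0184, 0.0435 and 0.0488). With quantile normalization Adm2 and Vldlr passed (limma adjusted p = 0.0375 and 0.0491) and Stc2 did not (0.0763). Vldlr and Stc2 did not pass with the replicate number as a block (0.106 and 0.0973), without the filter (0.244 and 0.277) or with 1 E9.5 library left out (0.121 to 0.746 and 0.126 to 0.762). Adm2, however, averaged 0.746 FPKM in the 6 libraries outside E9.5 cKO and reached the filter only through that group, so its test is no independent support. Without Adm2, 5 of the 7 remaining genes were higher by an unadjusted p below 0.05, and their median stood 1.19 above the median gene.

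Amino acid supply genes included the only one of the other pathway genes on the lists (81 tested of 94) that limma called at E9.5. Slc7a3, a transporter of cationic amino acids, stood at 0.124 and 0.240 FPKM in WT against 5.12 and 4.22 in cKO hearts at E9.5 (log2 difference 2.26, SE 0.23, limma adjusted p = 0.0131). With a mean of 0.523 FPKM in the 6 libraries outside E9.5 cKO, it reached the filter only through the group where it is high, so the call is a description and not independent support. The call was lost without any 1 of the 4 E9.5 libraries (limma adjusted p from 0.0734 to 0.191), without the filter (0.0521) and in a fit of the E9.5 libraries alone (0.0695). At E8.5 Slc7a3 had 1.26 and 0.902 FPKM in WT and 0.378 and 0.235 in cKO. Of the 8 transport genes, 4 were higher and 0 lower by an unadjusted p below 0.05 at E9.5. The shares of all tested genes were 5.27% and 10.5%. The median of the 8 stood 0.89 above the median gene. Without Slc7a3, 3 of 7 transport genes were higher in that way, with a median of 0.88. They included Slc3a2, the heavy chain that xCT and other transporters share, at 46.4 and 41.5 FPKM in WT against 105 and 100 in cKO hearts at E9.5 (limma adjusted p = 0.136).

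Of 13 genes for amino acid and one-carbon synthesis, 11 were tested and limma called 0 at E9.5 (0.18% of all tested genes were called). By an unadjusted p below 0.05, 4 were higher and 0 lower, against 5.27% and 10.5% of all tested genes. Their median stood 0.64 above the median gene. Shmt2, the mitochondrial serine hydroxymethyltransferase, stood at 46.1 and 41.5 FPKM in WT against 152 and 121 in cKO hearts at E9.5 (limma adjusted p = 0.108). Bcat1, which transfers amino groups of branched-chain amino acids, stood at 5.51 and 6.74 against 15.3 and 20.3 FPKM (limma adjusted p = 0.109). The tRNA synthetases differed in both directions. Among the 12 known as ATF4 targets, limma called 0, and Sars and Cars differed by 1.05 and 0.77 while Tars and Wars differed by -0.75 and -0.62 (log2, limma adjusted p from 0.138 to 0.29). The 8 other synthetases had a median of -0.45 relative to the median gene, with Farsb at -1.73 (limma adjusted p = 0.101).

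Endoplasmic reticulum chaperones and other genes of the unfolded protein response mostly stood the other way. The list also holds Xbp1, Edem1, Sel1l and Herpud1, and its genes are not separated by arm of that response. Of 15 tested, limma called 0 at E9.5. By an unadjusted p below 0.05, 0 were higher and 5 lower, against 5.27% and 10.5% of all tested genes. Their median was -0.55 relative to the median gene, and 3 of the 15 stood above that gene. Hspa5, the chaperone BiP that senses unfolded proteins, had 704 and 1018 FPKM in WT against 151 and 334 in cKO hearts at E9.5 (log2 difference -1.91, SE 0.43, limma adjusted p = 0.118). Manf, a secreted factor induced with it, had 227 and 196 against 80.3 and 114 FPKM (limma adjusted p = 0.127). Of 9 targets of the oxidative stress factor NRF2, 7 were tested and limma called 0 at E9.5. At an unadjusted p under 0.05, 1 was higher (Hmox1, haem oxygenase, log2 difference 1.38, limma adjusted p = 0.273). In the other direction, 1 was lower (Txnrd1, thioredoxin reductase, -0.65, limma adjusted p = 0.298). The shares of all tested genes were again 5.27% and 10.5%, and these counts are not read further. At E8.5, limma called 0 of the 81 tested pathway genes, and 0 were higher and 5 lower by an unadjusted p below 0.05, against 0.26% and 7.55% of all tested genes.

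**Figure D4:**
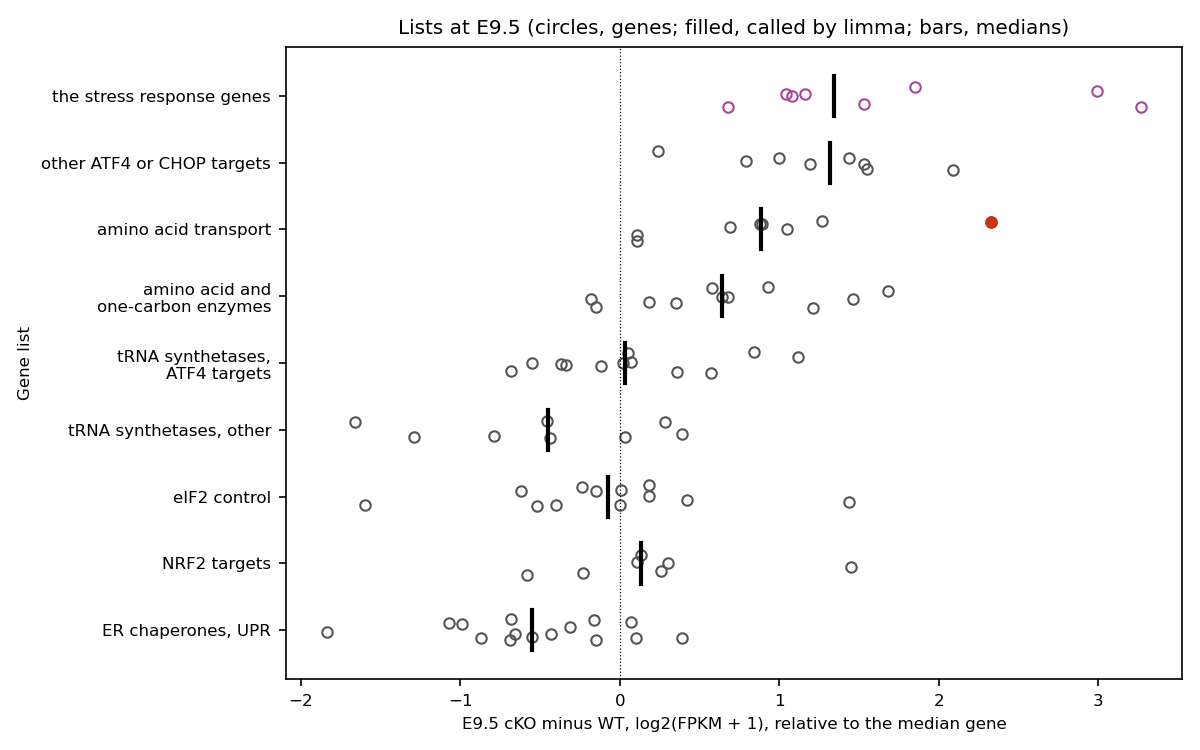
E9.5 difference between cKO and WT in log2(FPKM + 1), relative to the median gene, for each gene (circle) of the stress response genes (purple, described and not tested) and of 8 related lists; bars mark list medians, and a filled circle marks a gene called by limma. Medians run from 1.34 for the stress response genes to -0.55 for endoplasmic reticulum chaperones and other unfolded protein response genes. Slc7a3 at 2.33 is the filled circle.

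Close relatives and partners of these genes stood elsewhere. Of 10 relatives or partners, 8 were tested, limma called 0 at E9.5, and their median was -0.23 relative to the median gene. Beside Chac1, its paralogue Chac2 had 1.17 and 1.25 FPKM in WT against 1.43 and 1.16 in cKO hearts at E9.5. Beside Trib3, Trib2 had 4.97 and 10.5 against 4.21 and 5.28 FPKM (log2 difference -0.54, but -0.06 without E9.5 WT replicate 2), and Trib1 2.01 and 1.59 against 2.19 and 2.06. Beside Sesn2, Sesn1 had 3.95 and 3.21 against 1.55 and 2.61 FPKM and Sesn3 1.35 and 1.65 against 0.930 and 0.727. Both were lower in cKO, but neither difference passed the test (limma adjusted p = 0.324 and 0.474). Eif4ebp2 and Eif4ebp3 overlapped between genotypes. The target of their products, Eif4e, had 20.6 and 45.5 FPKM in WT against 8.08 and 10.7 in cKO hearts at E9.5 (log2 difference -1.62, SE 0.39, limma adjusted p = 0.127), and the difference was -1.07 without E9.5 WT replicate 2 and -2.17 without replicate 1. None of these differences between a gene and its relative was itself tested.

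Other quantities at E9.5 stand beside these differences. Across 9122 tested genes with a transcript sequence, GC content and the E9.5 difference had a Spearman rho of 0.405, and GC content and the difference between the 2 E9.5 WT replicates one of 0.627. The points share libraries and genes are not independent. Of the 8 fitted genes, 7 were above the median GC content of 50.7% (Atf4 54.1% to Atf5 61.7%) and Asns, at 47.7%, was below it. When the median of genes in the same 10th part of the GC range (10 parts of equal gene number) was subtracted, the E9.5 differences were 0.46 for Atf5, 0.79 for Eif4ebp1, 0.95 for Atf4, 1.30 for Sesn2, 1.32 for Asns, 1.67 for Ddit3, 2.74 for Trib3 and 3.02 for Chac1, with a median of 1.31. The genes of the other lists and the relatives were not corrected for GC content. The 6 cardiomyocyte markers summed to 48146 and 47069 FPKM in WT against 65189 and 67465 in cKO hearts at E9.5. The 6 endothelial markers summed to 50.5 and 65.1 against 77 and 77.1. A few abundant genes set these sums: both cKO libraries were above both WT libraries for 3 of the 6 cardiomyocyte markers (Actc1, Nkx2-5 and Myl7) and below them for Myh6, at 916 and 777 FPKM in WT against 424 and 567 in cKO. For the endothelial markers it was 2 above (Pecam1 and Tie1) and 1 below (Tek). Of all tested genes, 21% had both cKO libraries above both WT libraries at E9.5, and no share is given for the lower order. Such counts of markers, here and below, are therefore not read further. The sums overlapped between genotypes for the 6 primitive erythroid markers (14428 and 29565 against 39582 and 29100) and the 6 visceral endoderm markers (6491 and 4889 against 4236 and 6485). Among single erythroid markers, both cKO libraries were above both WT libraries for 3 of 6 (Hba-x, Alas2 and Gata1) and below them for 0, with Gata1 at 0.873 and 1.11 FPKM in WT against 4.45 and 2.28 in cKO hearts. Among the visceral endoderm markers it was 1 above (Amn) and 0 below. The 6 myeloid markers summed to 8.34 and 10.4 FPKM in WT against 11.6 and 14.6 in cKO hearts, with 2 genes above (Csf1r and Lyz2) and 2 below (Cx3cr1 and C1qa). Of the 6 decidual and natural killer markers, Prl3c1 was at 0 in all 4 E9.5 libraries. The part of cell composition in the E9.5 differences was not tested.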

How the data were processed

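Total RNA of E8.5 and E9.5 hearts was amplified (SMARTer kit in the labels, Smart-seq2 in the study's methods), sequenced on an Illumina HiSeq2500 and mapped with BWA; the labels and methods name mm9. The authors deposited 1 table of FPKM (fragments scaled by transcript length and library total) for the 8 libraries; the program behind it and strand use are not given in the sources used here. Its coordinates lie within 1000 bp of GRCm38 starts for 91.7% of 9515 matched genes, so they were given as GRCm38. For 285 symbols with several entries, only the one of highest mean FPKM was used, and 27 symbols turned into dates were told apart by position, which left 24385 features, and 0 sample columns were left unused. Columns were matched to samples by stage, genotype and replicate in their names.

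The fit used limma 3.58.1 (R 4.3.3) on log2(FPKM + 1): 4 groups in 1 model, trend eBayes, a filter at a mean of 1 FPKM (10018 genes kept), Benjamini-Hochberg adjustment, and a call at adjusted p under 0.05 and at least 1.5-fold. With 2 libraries a group, an exact permutation test could not go below p = 0.333. The code was tested on simulated data. The depth in reads is unknown, so no counting intervals were given. Members and gene lists were chosen with earlier results of these data known. The genes named were the 10 members, Dgcr8, eIF2 control genes and relatives compared with a member, from each other list the genes called or up to 4 with the widest E9.5 difference, and the 5 genes nearest in profile. Alternatives were median-ratio scaling, quantile normalization, a pseudocount of 0.1, no filter, no trend, 1 stage alone, a replicate block and each library left out, and, chosen after seeing the data, a correction by GC content in 10 parts and a crossed pairing. Motifs were searched in RefSeq promoter windows.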

Additional observations from a re-analysis of the deposited data

Results flagged for a closer look

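For Atf4, Asns and Sesn2, both cKO libraries were below both WT libraries at E8.5 and above them at E9.5 in the deposited FPKM. The log2 differences were -0.41 and 1.01 for Atf4, -0.39 and 1.09 for Asns, and -0.25 and 1.46 for Sesn2. The difference between the stages was not tested, since the genes were chosen with their E9.5 values known. At E8.5 40.1% of all tested genes were lower in this way and the median gene differed by -0.28. The E8.5 values became -0.05, -0.04 and 0.05 for Atf4, Asns and Sesn2 when scaled by median ratios, and -0.12, -0.07 and 0.03 when quantile-normalized, so the E8.5 direction of Sesn2 cannot be given and the differences of Atf4 and Asns shrank towards 0.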

How the results depend on the processing

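The count of stress response genes called at E8.5 was 0 under every alternative run. Of all genes, 1 was called at E8.5, against 3 with quantile normalization, 0 with a pseudocount of 0.1, 2 without the filter and 0 to 50 with 1 library left out, where a lone library is assumed to vary like the others (50 without E8.5 cKO replicate 2, 25 without E8.5 WT replicate 2, 21 without E8.5 cKO replicate 1). At E9.5 18 genes were called, against 56 with median-ratio scaling, 31 with quantile normalization, 3 without the filter, 0 with that stage alone and 1 to 87 with 1 library left out (87 without E8.5 cKO replicate 2, 1 without E9.5 cKO replicate 1). Of the other pathway genes 1 was called at E9.5, against 5, 3, 0 and 0 in the same order and 0 to 4 with 1 library left out. The median of the 8 genes relative to the median gene at E8.5 was 0.03, -0.17 without the filter, which adds Cebpb and Slc7a11, and -0.03 relative to genes of like GC content, and ran from -0.08 to 0.22 with 1 library left out (0.22 without E8.5 WT replicate 2). At E9.5 it was 1.34, against 1.55 with a pseudocount of 0.1, 1.05 without the filter, 1.31 relative to genes of like GC content and 1.29 to 1.41 with 1 library left out. For WT development it was 0.09, against -0.05 with quantile normalization, -0.53 without the filter and -0.05 to 0.15 with 1 library left out (-0.03 and -0.05 without replicate 1 of E8.5 WT and of E9.5 WT). For cKO development it was 1.44, against 0.65 without the filter. E8.5 signs turned for Atf5 (0.07 with median-ratio scaling, 0.11 with quantile normalization, -0.66 to 0.37 with 1 library left out), Ddit3 (0.01 with median-ratio scaling), Trib3 (-0.54 to 0.02 with 1 left out) and Sesn2 (0.05 and 0.03 with the scalings). E9.5 signs turned for Chac2 (-0.03 to 0.14 with 1 left out), Eif4ebp2 (-0.48 to 0.21) and Eif4ebp3 (-0.31 to 0.26). The cause was not tested. The groups share replicate numbers only: deviations of same-numbered libraries correlated at -0.116 to 0.0168. With the replicate number as a block, 0 of the 8 genes and 1 gene in all were called at E8.5, and 12 genes in all and 1 pathway gene at E9.5. For WT development 140 genes were called higher and 4683 lower, against 145 and 4523 with the block and 123 and 4180 with the pairing crossed.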
